A study of Mus musculus with 2 samples.

Results

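The transcription factors that mark the cell types of the islet were followed through the mouse pancreas at embryonic day 14.5. The genes are Irx1, Irx2, Pou3f4, Mafa, Hhex, Isl1, Pax6 and Nkx2-2, taken by symbol, with earlier results of these data known. They are 8 of the 32285 features counted in each library. RNA was counted in single cells with the 10x Genomics droplet assay, in which each captured molecule carries a unique molecular identifier (UMI). The Null group is 1 library from 3 pooled pancreata of 3 litters. Their genotype is Fgf9 -/-, with a LacZ cassette in the locus that takes away the function of Fgf9, a secreted fibroblast growth factor. The Control group is 1 library from 8 pooled pancreata of 3 litters. These were Fgf9-replete littermates of genotype Fgf9 +/+ and +/-, so the +/- embryos among them carry the cassette as well. Both groups come from Fgf9 LacZ mice on a C57BL/6J background. The cells were whole dissociated pancreas, sorted as live by exclusion of DAPI. With 1 library per genotype no difference between the groups has a replicate check, and no test was made. Every interval below covers counting error alone.

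Islet cells arise from pancreatic epithelium that switches on Neurog3, passes through a Fev-expressing stage, and then takes up one hormone. Alpha cells make glucagon (Gcg), beta cells insulin (Ins1 and Ins2), delta cells somatostatin (Sst), epsilon cells ghrelin (Ghrl) and PP cells pancreatic polypeptide (Ppy). Irx1 and Irx2 are Iroquois homeodomain factors known from alpha cells, and Pou3f4, also called Brn4, is a POU-homeodomain factor known from alpha cells that can bind the glucagon promoter. Mafa is a bZIP activator of the insulin genes. Hhex is a homeodomain factor that mouse delta cells need, and it is also known from the early pancreatic and hepatic buds and from endothelium. Isl1, a LIM-homeodomain factor, and Pax6, a paired-domain factor, act in all hormone cell types. Nkx2-2 is a homeodomain factor of the endocrine lineage whose loss in the mouse replaces beta cells by ghrelin cells.

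The stretches of genome just before the annotated starts of a pair of genes that were high in Gcg cells (Irx2, Pou3f4) and of a pair that were high in all hormone cells (Isl1, Pax6) are shown so that the genes can be placed. Each has 150 bases, 5' to 3' on the strand of the gene, from the RefSeq promoter table on GRCm38.p6, and ends at the base before the outermost of the RefSeq and GENCODE starts. Capitals mark the letters CCAAT or their reverse complement ATTGG. Irx2 lies on the plus strand at chr13:72628670-72628819, Pou3f4 on the plus strand at chrX:110814130-110814279, Isl1 on the minus strand at chr13:116309690-116309839 and Pax6 on the plus strand at chr2:105668746-105668895.
Irx2: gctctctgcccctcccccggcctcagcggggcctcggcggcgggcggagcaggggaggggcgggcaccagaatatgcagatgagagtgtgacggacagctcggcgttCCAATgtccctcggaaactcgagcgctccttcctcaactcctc
Pou3f4: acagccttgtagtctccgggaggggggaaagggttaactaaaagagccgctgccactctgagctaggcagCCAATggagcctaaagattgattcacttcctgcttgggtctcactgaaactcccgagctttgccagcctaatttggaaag
Isl1: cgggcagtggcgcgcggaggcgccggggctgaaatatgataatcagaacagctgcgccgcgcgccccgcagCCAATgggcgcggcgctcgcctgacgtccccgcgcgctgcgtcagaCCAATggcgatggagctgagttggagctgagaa
Pax6: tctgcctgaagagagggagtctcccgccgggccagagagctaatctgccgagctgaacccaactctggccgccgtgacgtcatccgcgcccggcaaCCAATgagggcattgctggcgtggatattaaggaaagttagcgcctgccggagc

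The RefSeq promoter table held 6 of the 8 genes, all but Irx1 and Mafa. On either strand of the 250 bases before the start, CCAAT was found in 5 of those 6 genes (all but Nkx2-2) and in 34.5% of the 27025 genes of the table. The other motifs searched the same way were TGACGTCA, found in Pax6 alone of the 6 and in 1.62% of the table, TAATTA, in none of the 6 and 4.90%, and TATAAA, in none of the 6 and 13.0%. A match is a description of letters, not a binding site. The genes lie on GRCm38 as follows: Irx1 on chromosome 13 from 71957921 to 71963723 (minus strand), Irx2 on chromosome 13 from 72628820 to 72634198 (plus), Mafa on chromosome 15 from 75745490 to 75748228 (minus) and Isl1 on chromosome 13 from 116298281 to 116309689 (minus). Pax6 lies on chromosome 2 from 105668900 to 105697364 (plus), Hhex on chromosome 19 from 37434810 to 37440731 (plus), Pou3f4 on chromosome X from 110814280 to 110817207 (plus) and Nkx2-2 on chromosome 2 from 147177546 to 147194243 (minus). All are protein-coding. Pax6 overlaps Pax6os1, and Nkx2-2 overlaps Nkx2-2os and 6430503K07Rik, so where counting ignored strand the reads of these genes cannot be told apart.

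The libraries differed in depth. The Null library had 16708 barcodes and 271129120 UMIs, and the Control library 30209 barcodes and 339959625 UMIs. After filtering, 8869 Null cells with a median of 24227 UMIs and 26970 Control cells with a median of 5751.5 UMIs were kept, of which 253 Null and 9811 Control cells fell in a cluster of low UMI counts that stayed unnamed. Fgf9, the targeted gene, had 410 UMIs (1.71 CPM) in the kept cells of the Null library and 2901 UMIs (9.28 CPM) in those of the Control library. In endocrine-like cells it had 3 UMIs in 695 Null cells and 146 UMIs in 934 Control cells, and in mesothelial-like cells 34.6 CPM in Null and 76.4 CPM in Control cells, so transcript of the locus was still counted in the Null library. The labels do not say where in the locus the cassette sits, so these molecules cannot check the knockout. Every endocrine-like cell of the Null library whose sex could be called was Y-positive (a Y-linked UMI and at most 1 Xist UMI), and 41.6% of those of the Control library were. Sex and genotype are thus mixed, and values with Y-positive Control cells alone are given where they differ. The libraries shared 73 kept barcodes, 3 of them on endocrine-like cells of the Null library and 2 on those of the Control library. With barcodes found in both libraries left out, all 160 results compared across settings stayed within their counting intervals. Free RNA, estimated from acinar enzyme transcripts, made up 6.16% of the UMIs of endocrine-like cells in the Null library and 15.3% in the Control library.

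Endocrine-like cells numbered 695 in the Null library (median 21842 UMIs) and 934 in the Control library (median 14567). Their clusters were named from a list of 14 endocrine markers, each of which was counted in the endocrine-like cells of both libraries. Together these markers summed to 74985 CPM in Null cells and 53219 CPM in Control cells. CPM is UMIs per 1000000 UMIs of the group, with haemoglobin and mitochondrially encoded genes left out. A cell was assigned to a hormone when that hormone reached 20 UMIs per 10000 UMIs of the cell and made up 60% of its UMIs for 5 hormones. The 8 genes took no part in clustering, naming or hormone assignment. Gcg-dominant cells numbered 142 in the Null library and 233 in the Control library, insulin-dominant cells 198 and 189, Ghrl-dominant cells 55 and 96, Ppy-dominant cells 25 and 22, and Sst-dominant cells 19 and 21. Another 13 Null and 9 Control cells held mixed hormones, and 243 Null and 364 Control cells were low in all of them. Insulin-dominant cells were 28.5% (exact 95% interval 25.2 to 32.0) of endocrine-like cells in the Null library and 20.2% (17.7 to 23.0) in the Control library. Gcg-dominant cells were 20.4% (17.5 to 23.6) and 24.9% (22.2 to 27.9) of the Null and Control cells. Endocrine progenitor-like cells formed a cluster led by Neurog3 (260 Null and 648 Control cells) and a cluster led by Fev (236 and 496).

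**Figure D1:**
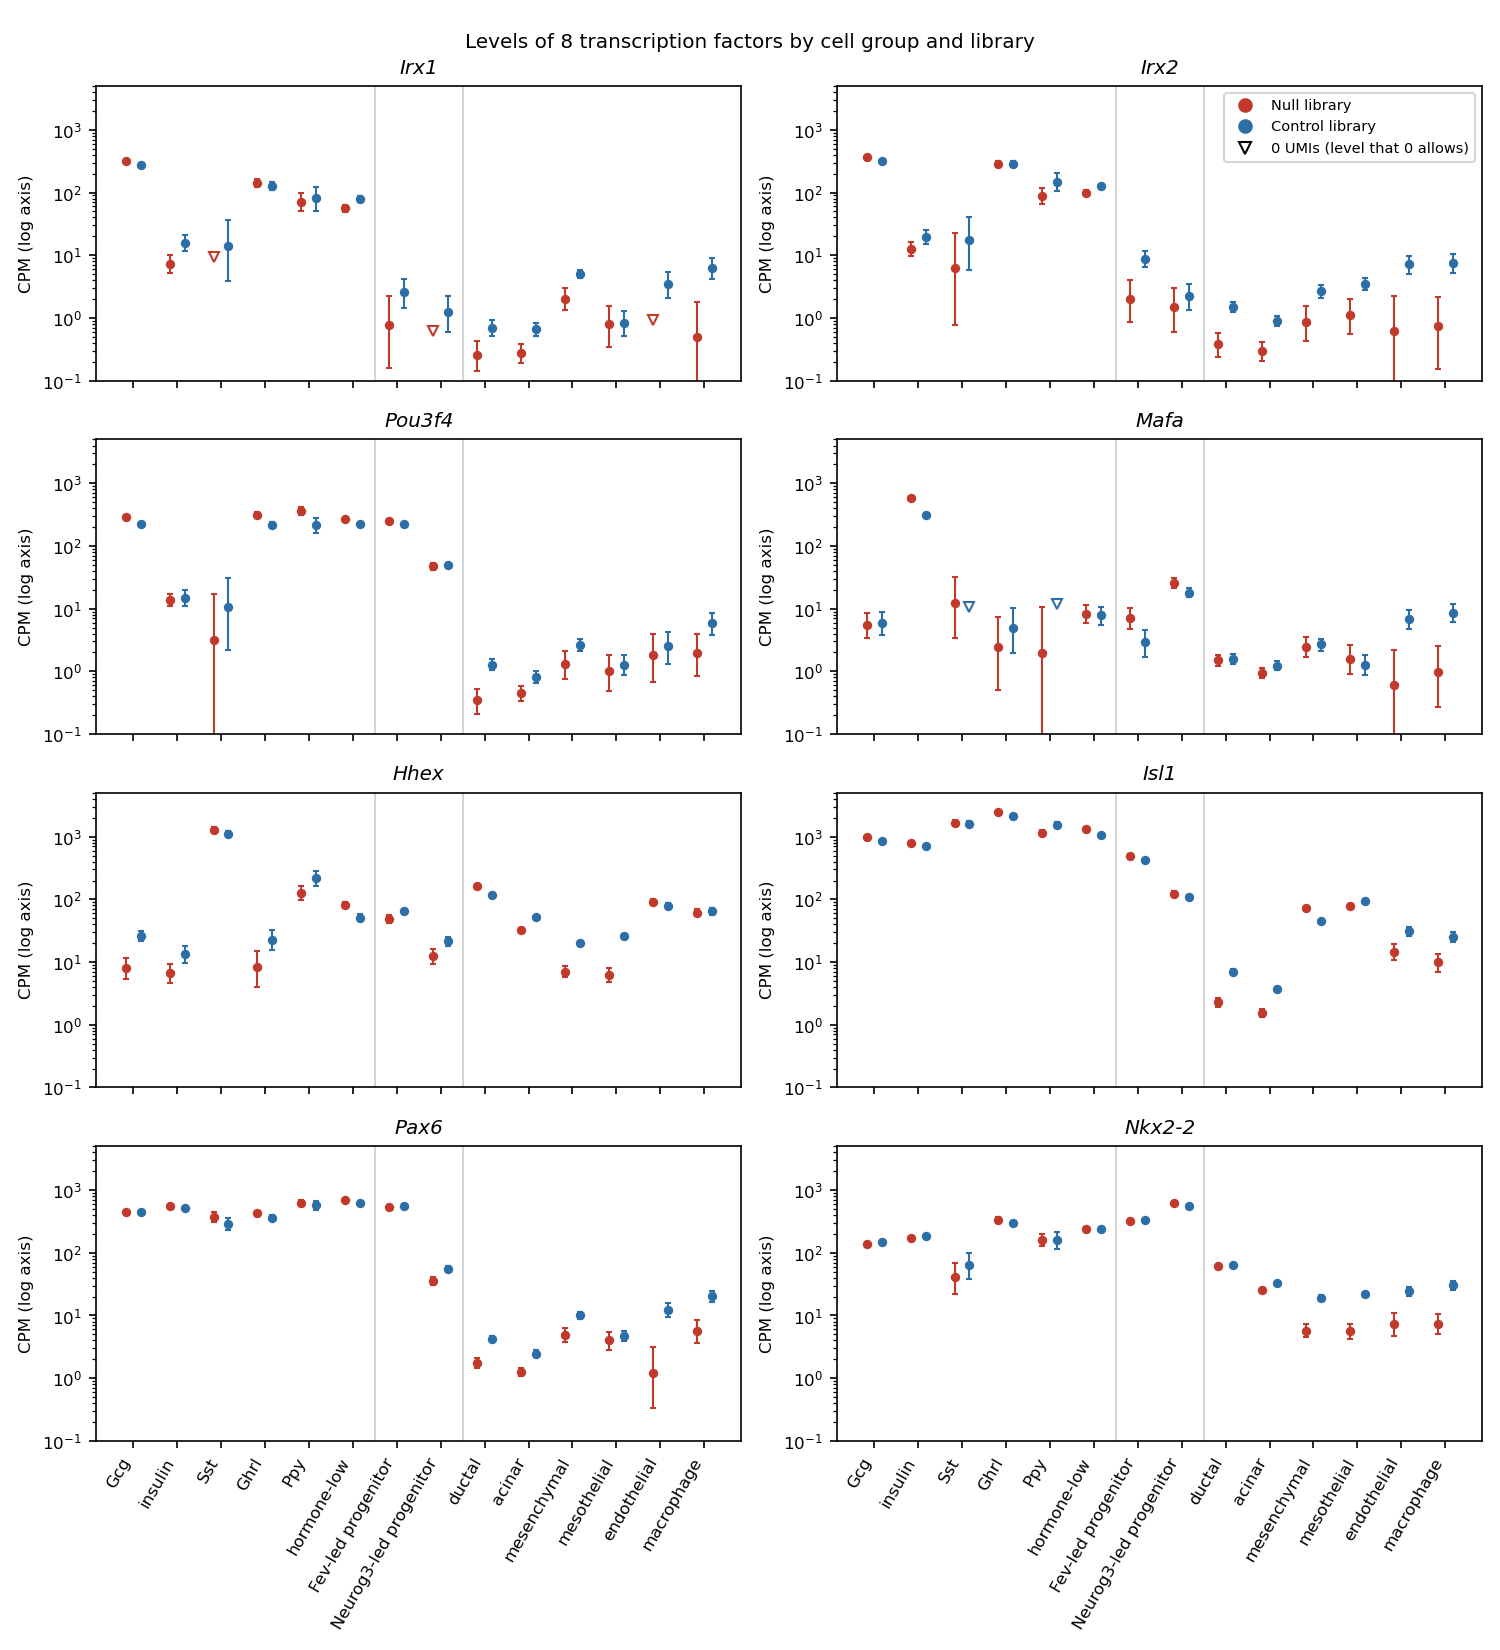
CPM (log axis) of each gene by cell group, Null library in red left of Control library in blue, with exact 95% Poisson intervals. Open triangles show the level that a count of 0 allows. Irx1, Irx2 and Pou3f4 are high in Gcg-dominant and Ghrl-dominant cells of both libraries, Mafa in insulin-dominant cells, Hhex in Sst-dominant and ductal cells, and Isl1 and Pax6 in all hormone groups.

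Irx1 and Irx2 were genes of the Gcg and Ghrl cells. Irx1 stood at 315 CPM in Gcg-dominant cells of the Null library and 277 CPM in those of the Control library, and at 7.30 and 15.8 CPM in insulin-dominant cells of the Null and Control libraries. Irx2 stood at 367 CPM in Null and 316 CPM in Control Gcg-dominant cells, against 12.7 and 19.7 CPM in insulin-dominant cells. The log2 ratio of Gcg-dominant over insulin-dominant cells was 5.43 (4.97 to 5.93) for Irx1 and 4.85 (4.50 to 5.22) for Irx2 in the Null library. It was 4.13 (3.73 to 4.56) and 4.002 (3.64 to 4.38) for the same genes in the Control library. At least 1 Irx1 UMI was found in 131 of 142 Gcg-dominant Null cells and 204 of 233 Gcg-dominant Control cells. Acinar-like cells, which should lack the gene, had an Irx1 UMI in 33 of 2580 Null cells (0.272 CPM) and 73 of 3643 Control cells (0.662 CPM). With each cell thinned to 2000 UMIs, Irx1 was detected in 43.7% of Gcg-dominant Null cells and 44.4% of Gcg-dominant Control cells.

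Irx1 and Irx2 parted in Ghrl-dominant cells. Irx1 stood there at 143 CPM in the Null library and 126 CPM in the Control library, which is a log2 ratio of -1.14 (-1.38 to -0.91) to Gcg-dominant cells in each library. Irx2 kept 288 CPM in Null and 283 CPM in Control Ghrl-dominant cells, with log2 ratios to Gcg-dominant cells of -0.35 (-0.52 to -0.18) and -0.16 (-0.32 to 0.01). Ghrl-dominant cells sat in 2 clusters, and Irx1 followed the cluster. In the Gcg-led cluster Irx1 stood at 186 CPM in 31 Null and 196 CPM in 44 Control Ghrl-dominant cells, whereas in the cluster led by Irs4, Ghrl and Mboat4 it stood at 77.6 CPM in 24 Null and 59.3 CPM in 52 Control cells. Ppy-dominant cells held 71.6 CPM of Irx1 in the Null library and 81.5 CPM in the Control library, from 37 and 21 UMIs. In Sst-dominant cells 0 Irx1 UMIs were counted in 19 Null cells, which allows up to 9.38 CPM, and 4 UMIs in 21 Control cells.

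The pair mostly shared its cells. Both genes were detected in 129 of 142 Gcg-dominant Null cells and 197 of 233 Gcg-dominant Control cells. Among Ghrl-dominant cells, 33 of 55 Null and 46 of 96 Control cells held both, 14 Null and 28 Control cells held Irx2 alone, and 0 Null and 5 Control cells held Irx1 alone. Irx2 alone also outnumbered Irx1 alone in hormone-low cells, at 44 against 16 in the Null library and 83 against 26 in the Control library. Irx1 and Irx2 lie on the same chromosome. Over 26 points (13 groups of at least 50 cells in each library), Irx2 was the gene whose level followed that of Irx1 most closely. Pearson's r was 0.97 on log2(CPM + 1). These points share libraries and depths, so r is a description. The other Iroquois genes on the list, Irx3, Irx4, Irx5 and Irx6, did not reach 50 UMIs in endocrine-like cells.

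**Figure D2:**
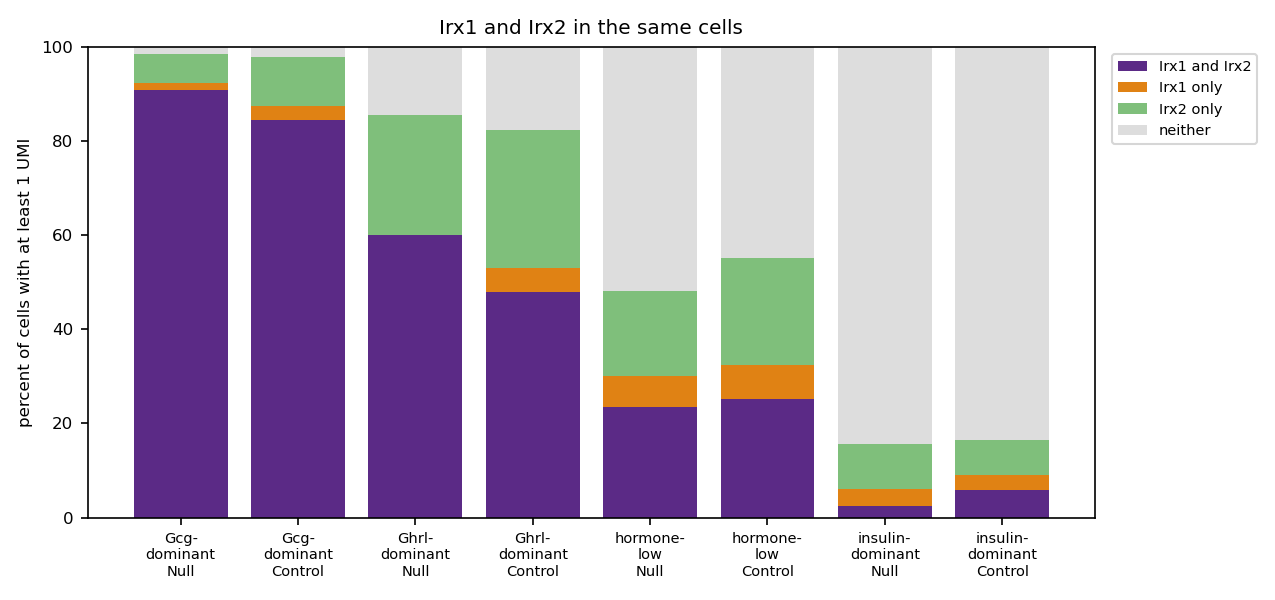
Percent of cells with at least 1 UMI of Irx1 and Irx2 together, of one alone, or of neither, by hormone group, Null left of Control. Cells with both genes fill most of the Gcg-dominant bars (129 of 142 Null and 197 of 233 Control cells), and Irx2 alone is more frequent than Irx1 alone in Ghrl-dominant and hormone-low cells.

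Pou3f4 had a wider range than the Iroquois genes. It stood at 284 CPM in Null and 227 CPM in Control Gcg-dominant cells, 315 and 215 CPM in Ghrl-dominant cells, and 364 and 214 CPM in Ppy-dominant cells. Insulin-dominant cells had 13.9 CPM in the Null library and 14.9 CPM in the Control library, and Sst-dominant cells 3.13 and 10.6 CPM from 1 and 3 UMIs. The log2 ratio of Gcg-dominant over insulin-dominant cells was 4.36 (4.02 to 4.72) in the Null library and 3.93 (3.52 to 4.37) in the Control library. Pou3f4 was also high in progenitors, where Irx1 and Irx2 were low. Fev-led progenitors had 249 CPM in the Null library and 222 CPM in the Control library, and Neurog3-led progenitors 47.2 and 49.1 CPM. Irx1 reached 0.757 and 2.54 CPM in the Fev-led progenitors of the Null and Control libraries, and Irx2 2.02 and 8.82 CPM. Hormone-low cells had 266 CPM of Pou3f4 in the Null library and 221 CPM in the Control library. Akap17b (r = 0.97) and Map3k15 (r = 0.96) were among the genes whose level over groups followed Pou3f4 most closely.

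Mafa was the gene of the insulin cells. In insulin-dominant cells it stood at 574 CPM in the Null library and 315 CPM in the Control library. Gcg-dominant cells had 5.49 and 5.95 CPM, and the log2 ratio of Gcg-dominant over insulin-dominant cells was -6.71 (-7.42 to -6.08) in the Null library and -5.73 (-6.38 to -5.15) in the Control library. Ghrl-dominant cells held 3 Mafa UMIs in the Null library and 7 in the Control library. Of endocrine-like cells with at least 3 Mafa UMIs, 144 of 151 in the Null and 92 of 97 in the Control library were insulin-dominant. Outside that class, 15 Null and 10 Control endocrine progenitor-like cells also held at least 3 Mafa UMIs. Within insulin-dominant cells Mafa was uneven: 162 of 198 Null cells and 131 of 189 Control cells had a UMI. The median was 4.81 and 1.58 UMIs per 10000 in the Null and Control libraries. The counts of cells with a UMI are raw, and depth differed, with a median of 26661.5 UMIs in Null and 17712 in Control cells.

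Of the 8 genes, Irx1, Irx2, Pou3f4 and Mafa were past 2-fold between Gcg-dominant and insulin-dominant cells in both libraries. Among all genes with at least 50 UMIs, 9.80% of 10059 were past 2-fold either way in the Null library and 6.83% of 9833 in the Control library. The other 4 were at -0.31 to 0.34 on the log2 scale in the Null library, and in the Control library Isl1, Pax6 and Nkx2-2 were at 0.25, -0.25 and -0.33 and Hhex at 0.96 (0.44 to 1.49). Of 30 other islet and endocrine transcription factors, 26 had enough UMIs in each library. Of these, 3 were past 2-fold toward Gcg-dominant cells in each library, among them Etv1 at 3.40 in Null and 3.78 in Control, and 8 toward insulin-dominant cells in the Null library against 6 in the Control library, among them Mnx1 at -3.51 and -3.44, Pdx1 at -2.83 and -2.67 and Nkx6-1 at -2.48 and -2.15 in the Null and Control libraries. The median over these factors was -0.53 in the Null library and -0.28 in the Control library, beside 0.14 and 0.10 over all genes.

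**Figure D3:**
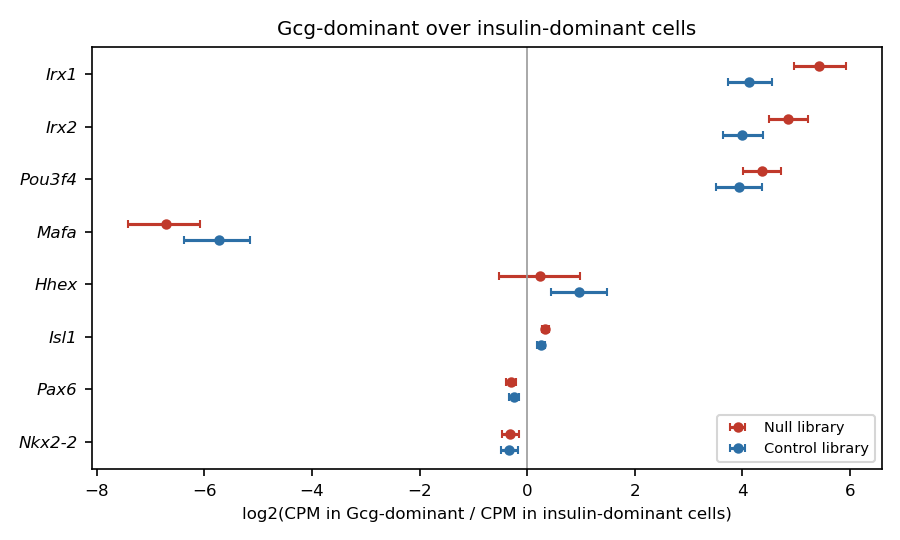
Log2 ratio of CPM in Gcg-dominant over insulin-dominant cells for each gene with exact 95% intervals, Null library (red) above Control library (blue). Irx1, Irx2 and Pou3f4 lie between 3.93 and 5.43, Mafa at -6.71 in Null and -5.73 in Control, and Isl1, Pax6 and Nkx2-2 within 0.35 of 0 in both libraries.

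These levels also followed the amount of hormone in the cell. The bands of hormone content used here were chosen after values were seen. In the insulin-led cluster Mafa stood at 25.6, 79.3 and 663 CPM in Null cells with under 20, 20 to under 100, and 100 or more insulin UMIs per 10000, from 30, 30 and 159 cells. The Control values were 33.5, 119 and 366 CPM from 61, 41 and 143 cells. Cells of the insulin-led cluster that were still low in insulin were therefore low in Mafa in both libraries. Pou3f4 ran the other way in that cluster, at 88.9, 22.7 and 9.34 CPM in Null cells and 78.9, 30.9 and 10.7 CPM in Control cells. In the Gcg-led cluster Irx1 went with Gcg, at 70.4, 252 and 326 CPM over the bands in Null cells and 104, 188 and 291 CPM in Control cells. Irx2 did likewise, at 125, 260 and 368 CPM in Null and 167, 270 and 317 CPM in Control cells. Pou3f4 held between 277 and 331 CPM over the Gcg bands in the Null library and between 215 and 294 CPM in the Control library.

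**Figure D4:**
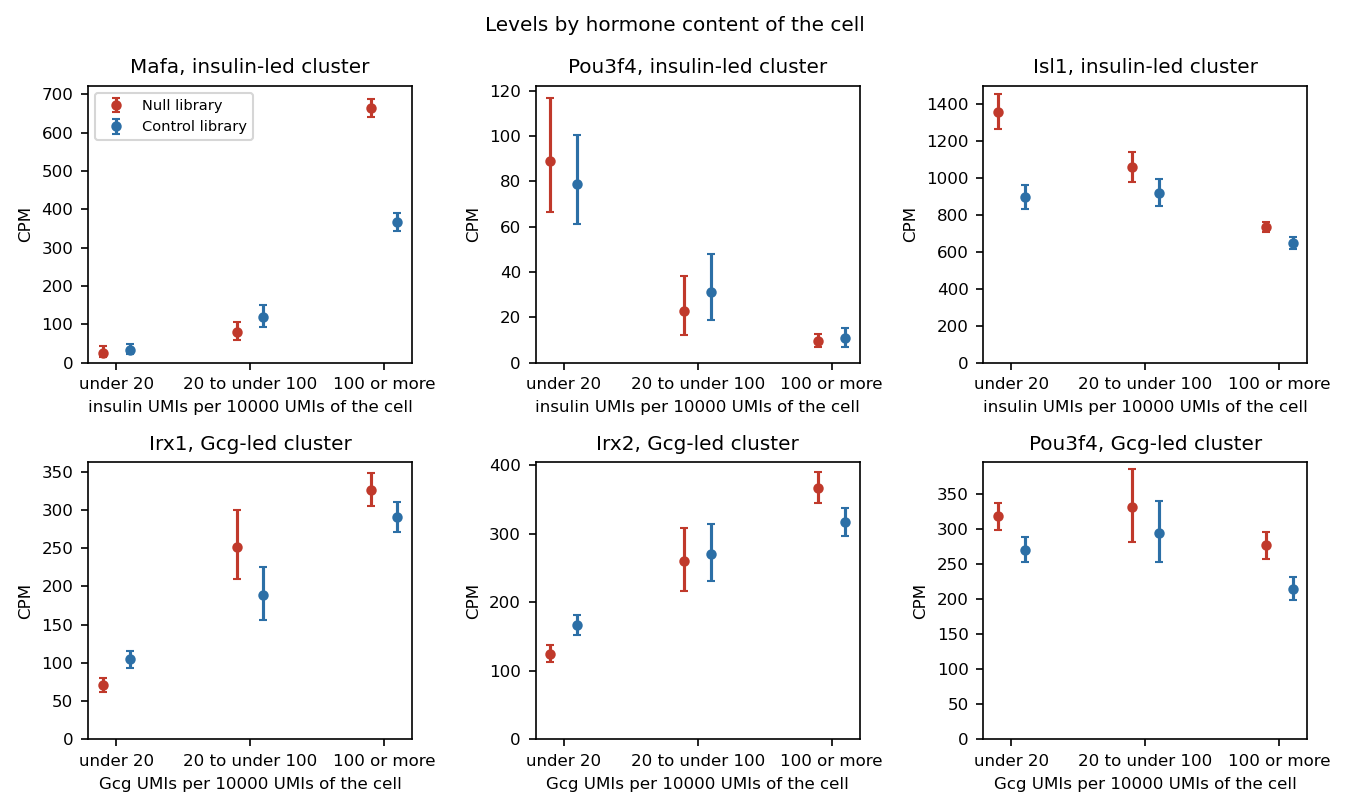
CPM with exact 95% intervals by hormone UMIs per 10000 UMIs of the cell, in the insulin-led cluster (top) and the Gcg-led cluster (bottom), Null left of Control. Mafa, Irx1 and Irx2 are highest in the cells richest in hormone, and Pou3f4 and Isl1 of the insulin-led cluster are lowest there.

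Hhex marked the Sst cells, and it was also a duct gene. Sst-dominant cells had 1301 CPM (1179 to 1432) in the Null library and 1107 CPM (987 to 1237) in the Control library, with a UMI in 18 of 19 Null and 21 of 21 Control cells. Hormone-low cells of the Sst-led cluster, 13 in each library, had 1395 CPM in the Null library and 897 CPM in the Control library, so the gene was high there where Sst was low. Of endocrine-like cells with at least 3 Hhex UMIs, 18 of 46 in the Null library and 21 of 59 in the Control library were Sst-dominant, and 18 and 16 were hormone-low. Ppy-dominant cells stood at 128 CPM in Null and 217 CPM in Control cells. These came from few cells: the 5 highest held 66 of 66 UMIs in the Null library and 55 of 56 in the Control library. Gcg-dominant, insulin-dominant and Ghrl-dominant cells had 6.74 to 8.24 CPM in the Null library and 13.4 to 26.0 CPM in the Control library. The free RNA estimated for endocrine-like cells amounts to 3.38 CPM of Hhex in Null and 6.98 CPM in Control cells.

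Most Hhex molecules lay outside the endocrine cells. Ductal or bipotent progenitor-like cells held 61.0% of the Hhex UMIs of the Null library and 43.0% of those of the Control library, and acinar-like cells 25.6% and 31.0%. Ductal cells stood at 162 CPM (159 to 166) in the Null library and 117 CPM (115 to 120) in the Control library, with a UMI in 1831 of 2107 Null cells and 2732 of 3618 Control cells. A ductal cluster of 56 cells that the Null library alone held had 382 CPM. Acinar cells had 32.7 CPM in Null and 51.7 CPM in Control cells. Endothelial-like cells had 91.7 CPM (81.6 to 103) in Null and 78.2 CPM (70.8 to 86.2) in Control cells, and macrophage-like cells 61.3 and 64.2 CPM. Mesenchymal-like cells, at 7.05 CPM in the Null library and 20.4 CPM in the Control library, were near the level of free RNA estimated for them, 4.78 and 13.0 CPM. Matches to other genes were taken over 13 groups of at least 50 cells, which leave out the Sst-dominant cells. Over those groups Hhex had no close match: its nearest was Plekhf2 (r = 0.81), and each of the other 7 genes had a match above 0.93.

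Isl1 was found in nearly all hormone cells, and highest in those with ghrelin. Ghrl-dominant cells had 2500 CPM (2412 to 2591) in the Null library and 2168 CPM (2092 to 2246) in the Control library, with a UMI in 55 of 55 and 96 of 96 cells. Sst-dominant cells had 1673 CPM (1534 to 1821) in Null and 1607 CPM (1462 to 1762) in Control, and Ppy-dominant cells 1159 and 1549 CPM. Gcg-dominant cells had 1005 CPM (973 to 1038) in Null and 856 CPM (828 to 885) in Control, and insulin-dominant cells were lowest at 794 CPM (770 to 818) and 719 CPM (690 to 748). The order Ghrl, Gcg, insulin held in both libraries beyond counting error, with a log2 ratio of Ghrl-dominant over Gcg-dominant cells of 1.31 (1.24 to 1.38) in the Null library and 1.34 (1.27 to 1.41) in the Control library. Isl1, Nkx2-2 and Irx1 were past 2-fold between Ghrl-dominant and Gcg-dominant cells in each library, where 8.10% of 8669 genes were in the Null library and 7.12% of 9078 in the Control library. Nkx2-2 lay at the 2-fold line in the Control library, with 1.00 (0.82 to 1.19). Over insulin-dominant cells, Ghrl-dominant cells had 1.66 (1.59 to 1.72) for Isl1 in the Null library and 1.59 (1.51 to 1.67) in the Control library.

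Isl1 was also present in cells around the epithelium. Mesothelial-like cells had 77.5 CPM (72.2 to 83.2) in the Null library and 93.6 CPM (89.9 to 97.5) in the Control library, with a UMI in 276 of 498 Null and 959 of 1377 Control cells, beside 19.4 and 26.9 CPM of free RNA estimated for them. They formed a pair of clusters that the libraries filled unequally. The larger, led by Upk3b, had 80.9 CPM (75.2 to 86.9) in 482 Null cells and 137 CPM (131 to 142) in 1145 Control cells. The other, led by Barx1, had 24.3 CPM in 232 Control cells and held 16 Null cells. Its Control cells had a median of 41795 UMIs, against 12716 in the Upk3b-led cluster. A second doublet call marked 327 Control and 10 Null mesothelial-like cells, 24.9% and 2.11% of those scored, so doublets may weigh on the Control values. Mesenchymal-like cells had 73.0 CPM (68.4 to 77.8) in Null and 45.3 CPM (43.0 to 47.7) in Control cells, with a UMI in 428 of 1390 and 972 of 4849 cells. Free RNA estimated for mesenchymal cells was 6.22 CPM of Isl1 in the Null library and 14.4 CPM in the Control library, and acinar cells held 1.56 and 3.66 CPM. Mural-like cells, 142 in the Null library and 44 in the Control library, had 122 CPM and 65.3 CPM. Their cluster was led by Actg2, Myh11 and Acta2. The higher level in Null mesenchyme, a log2 ratio of 0.69 (0.57 to 0.81), was found in each of 3 mesenchymal clusters with 50 cells in both libraries, at 66.0, 90.7 and 80.7 CPM in Null cells against 43.7, 57.6 and 39.1 CPM in Control cells. The cluster at 90.7 CPM, with 723 Null and 2305 Control cells, had a median of 1482 UMIs in Null and 2058 in Control cells. Across the 13449 genes measured in mesenchymal cells 9.17% were past 2-fold either way, and Isl1 was not.

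Pax6 was the most even of the 8 genes across hormone groups. It stood at 452 CPM (431 to 475) in Null and 442 CPM (422 to 463) in Control Gcg-dominant cells, and at 558 CPM (538 to 578) and 526 CPM (501 to 551) in insulin-dominant cells. Ghrl-dominant cells had 428 CPM in the Null library and 365 CPM in the Control library, Sst-dominant cells 372 and 287 CPM, and Ppy-dominant cells 621 and 571 CPM. Hormone-low cells were above all hormone groups with at least 50 cells, at 693 CPM (668.5 to 718) in Null and 634 CPM (612 to 658) in Control cells. A Pax6 UMI was found in 141 of 142 Gcg-dominant Null cells and 232 of 233 Gcg-dominant Control cells. In ductal cells of the Control library Pax6 was near the free RNA level, with 4.28 CPM beside 4.16 CPM of free RNA estimated for them. In those of the Null library it had 1.75 CPM, under the 2.47 CPM of free RNA estimated. Some classes outside the epithelium were above the free RNA level at low counts. Macrophage-like cells had 5.69 CPM in Null and 20.3 CPM in Control cells beside 2.72 and 7.63 CPM of free RNA. These came from few cells: the 5 highest held 18 of 23 UMIs in Null and 47 of 90 in Control cells. A second doublet call marked 1.51% of scored Null and 21.6% of scored Control macrophage-like cells. Other leukocyte-like cells had 36.2 and 11.6 CPM from 40 and 18 UMIs beside 1.83 and 5.12 CPM of free RNA. The closest matches of Pax6 over groups were Hepacam2, Rimbp2 and Chga, the chromogranin of secretory granules, each at r = 0.99.

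Nkx2-2 was high in the Neurog3-led progenitors and in part of the Ghrl cells. Neurog3-led progenitors had 626 CPM (604 to 649) in Null and 568 CPM (551 to 584) in Control cells. Fev-led progenitors had 323.5 CPM (306 to 342) and 333 CPM (319 to 348). Gcg-dominant cells had 137 CPM in Null and 148 CPM in Control cells, insulin-dominant cells 170 and 186 CPM, and Ghrl-dominant cells 333 and 297 CPM. Sst-dominant cells were lowest, at 40.7 CPM (21.6 to 69.5) in Null and 63.8 CPM (37.8 to 101) in Control cells from 13 and 18 UMIs. Within the Ghrl-dominant cells Nkx2-2 followed the cluster in the direction opposite to Irx1, with 627 CPM in Null and 451 CPM in Control cells of the Irs4-led cluster, against 134 and 135 CPM in those of the Gcg-led cluster. Nkx2-2 was also spread over the exocrine epithelium. Ductal cells had 61.0 CPM in Null and 64.8 CPM in Control cells, and acinar cells 26.0 and 32.8 CPM, beside 2.40 and 6.76 CPM of free RNA estimated for ductal cells. Endocrine-like cells held 21.0% of Nkx2-2 UMIs of the Null library and 13.0% of those of the Control library.

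From the Neurog3-led to the Fev-led progenitors the genes split. Pax6 stood at 539 CPM in Fev-led and 35.9 CPM in Neurog3-led Null cells, and at 566 and 55.8 CPM in the Control library. Its log2 ratio of 3.91 (3.68 to 4.14) in the Null library and 3.34 (3.199 to 3.49) in the Control library was above those of Pou3f4 (2.40 and 2.18), Isl1 (2.00 and 1.96) and Hhex (1.96 and 1.59). For Hhex, the 5 highest progenitor cells of both clusters held 110 of 250 UMIs in Null and 105 of 552 in Control cells. Nkx2-2 was lower in Fev-led cells, at -0.95 in the Null library and -0.77 in the Control library. Mafa was lower too, at -1.88 (-2.53 to -1.28) in Null and -2.65 (-3.47 to -1.92) in Control cells. Neurog3-led cells held 26.0 CPM (21.6 to 31.0) of Mafa in the Null library and 18.1 CPM (15.3 to 21.2) in the Control library, against 7.07 and 2.88 CPM in Fev-led cells and 1.56 and 1.28 CPM of free RNA estimated for Neurog3-led cells. A Mafa UMI was found in 76 of 260 Null and 110 of 648 Control Neurog3-led cells, with at most 6 in a cell. Of the 6 genes with at least 50 UMIs in the Null library, 5 were past 2-fold (all but Nkx2-2), where 20.4% of 10079 genes were. In the Control library 7 had enough UMIs and 6 were past 2-fold, Irx2 among them at 1.99 (1.19 to 2.85) from 52 Fev-led and 18 Neurog3-led UMIs, where 16.6% of 11089 genes were.

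Irx1 and Irx2 had the highest ratios of the 8 genes between hormone-low endocrine-like cells and progenitors of both clusters. Irx1 stood at 55.8 CPM in Null and 77.9 CPM in Control hormone-low cells. Its log2 ratio to progenitors was 7.34 (5.78 to 9.63) in the Null library and 5.45 (4.86 to 6.09) in the Control library, and that of Irx2 5.83 (5.10 to 6.68) and 4.65 (4.29 to 5.02). In the Null library 3 Irx1 UMIs were counted in 496 progenitor cells, so the first of these ratios rests on those. Isl1 was higher by 2.19 in Null and 2.12 in Control cells, and Pax6 by 1.39 and 1.23. Nkx2-2 was lower, at -1.02 in the Null library and -0.99 in the Control library. Mafa was lower as well, with 37 UMIs in 243 hormone-low and 152 in 496 progenitor cells of the Null library. In the Control library it had 36 UMIs in 364 hormone-low and 163 in 1144 progenitor cells. Hhex was at 1.52 (1.28 to 1.75) in the Null library and 0.37 (0.15 to 0.59) in the Control library, and it rested on few cells: the 5 highest hormone-low cells held 171 of 364 Hhex UMIs in the Null library and 99 of 236 in the Control library. All but Pou3f4, 7 of the 8 genes with Hhex among them, were past 2-fold in the Null library, where 14.6% of 11045 genes were. In the Control library 4 were (Irx1, Irx2, Isl1 and Pax6), where 13.5% of 11670 genes were.

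Mafa seldom shared single cells with Irx1, Irx2 or Pou3f4, whereas Irx and Pou3f4 often did. Of 151 endocrine-like Null cells with at least 3 Mafa UMIs, 7 also held at least 3 UMIs of Irx1 and Irx2 summed (4.64%, exact 95% interval 1.88 to 9.32), and 7 of 97 did in the Control library (7.22%, 2.95 to 14.3). For Pou3f4 the counts were 5 of 151 Mafa cells in the Null library and 1 of 97 in the Control library. Of the cells with at least 3 UMIs of Irx1 and Irx2 summed, 193 of 288 in the Null library and 205 of 410 in the Control library also held at least 3 of Pou3f4. At least 3 Isl1 UMIs were found in 150 of 151 Mafa cells of the Null library and 90 of 97 of the Control library. Among all endocrine-like cells, 659 of 695 in the Null library and 830 of 934 in the Control library held as many. The Mafa cells were thus near the share of Isl1 in endocrine-like cells at large. For Pou3f4 these counts were 300 of 695 and 321 of 934, and for Irx1 and Irx2 summed 288 and 410. Null cells were deeper, which raises the chance of reaching 3 UMIs, and these shares were not thinned to a common depth.

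The Null and Control libraries were then compared over all endocrine-like cells. Mafa stood at 199 CPM (192 to 206) in the Null library and 79.9 CPM (75.3 to 84.7) in the Control library, which is 2.49-fold or 1.32 (1.22 to 1.41) on the log2 scale. It was the one gene of the 8 past 2-fold, where 2.73% of 12652 genes were past 2-fold either way and 0.443% were at least 2-fold higher in the Null library. Irx1 was at -0.21 (-0.31 to -0.11), Irx2 at -0.22 (-0.31 to -0.14), Nkx2-2 at -0.06 (-0.14 to 0.01), Hhex at 0.10 (-0.04 to 0.23), Pax6 at 0.12 (0.07 to 0.16), Pou3f4 at 0.13 (0.05 to 0.21) and Isl1 at 0.15 (0.12 to 0.18), and the sign turned under at least 1 processing alternative for Nkx2-2, Pax6 and Pou3f4. The median over the 8 genes was 0.11, beside 0.00 over all genes, whose median distance from 0 was 0.14. The share of insulin-dominant cells was higher in the Null library, as given above. With the hormone groups weighted alike, an alternative added after the data were seen, Irx1 was at -0.01, Irx2 at -0.03 and Mafa at 0.83. Of the 30 other islet transcription factors 26 were measured, of which 1 was past 2-fold. That gene was Onecut1, a factor of ducts and endocrine progenitors, at -1.56.

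Within insulin-dominant cells the Mafa difference was smaller and stayed. The log2 ratio of Null over Control was 0.86 (0.76 to 0.97), or 1.82-fold, and ranged from 0.73 to 0.96 over the processing alternatives, with 0.73 for Y-positive Control cells. Ins1 stood at 28859 CPM in the Null library and 20633 CPM in the Control library, and Ins2 at 62414 and 45028 CPM, log2 ratios of 0.48 and 0.47. The difference lay in the cells richest in insulin: with 100 or more insulin UMIs per 10000 the ratio was 0.86 (0.75 to 0.96), and between 20 and 100 it was -0.59 (-1.13 to -0.05) from 30 Null and 41 Control cells. Pdx1 and Nkx6-1, which also mark beta cells, were at 0.18 and 0.25. Among the 8 genes Irx1 alone was past 2-fold in insulin-dominant cells, at -1.11 (-1.75 to -0.49), where 2.19% of 9816 genes were past 2-fold either way. Irx1 there rested on 39 Null and 53 Control UMIs, of which the 5 highest cells held 32 and 37, so that counting intervals understate its error, and with Y-positive Control cells it was at -0.77, inside 2-fold. Hhex was at -0.99 (-1.67 to -0.33) from 36 and 45 UMIs, and Irx2 at -0.63 (-1.14 to -0.12).

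**Figure D5:**
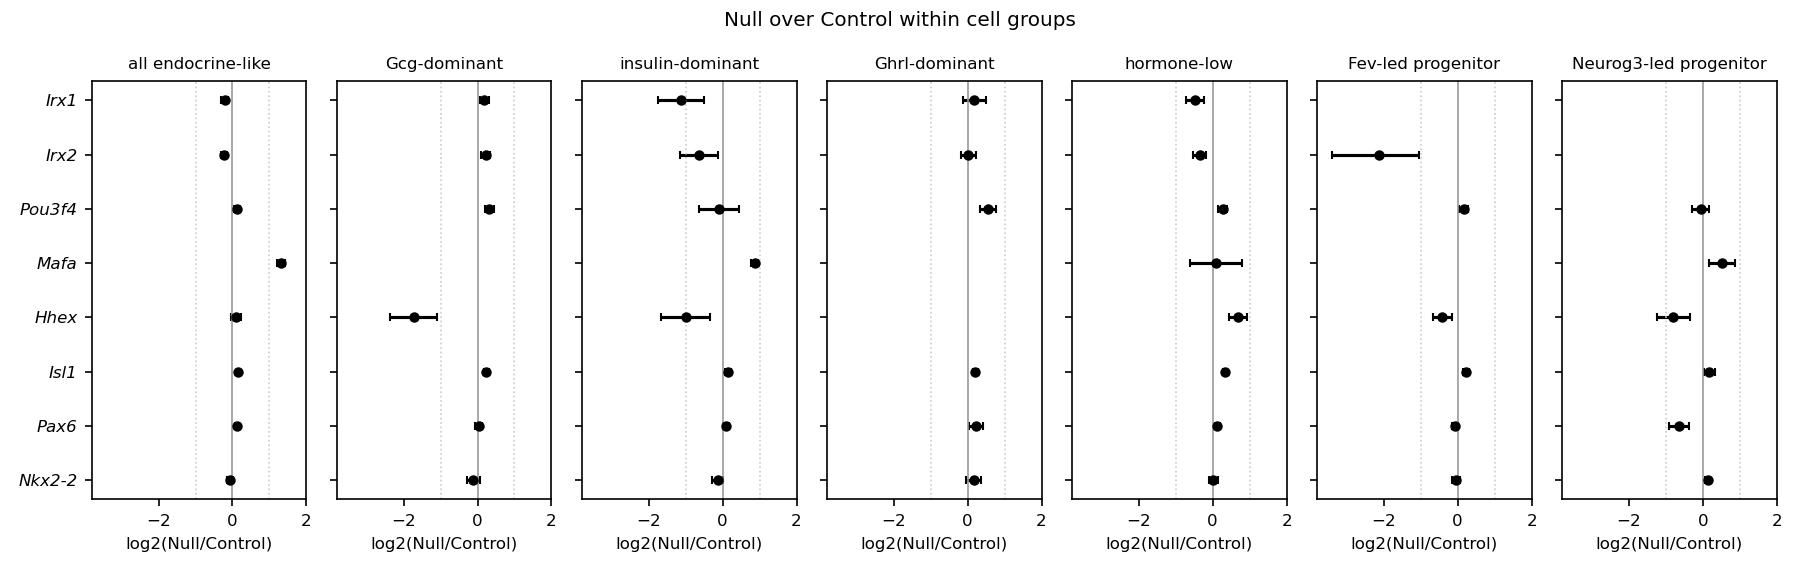
Log2 ratio of Null over Control CPM for each gene with at least 50 UMIs, with exact 95% intervals, by cell group. Dotted lines mark 2-fold. Mafa lies at 1.32 over all endocrine-like cells and 0.86 in insulin-dominant cells, Hhex at -1.71 in Gcg-dominant cells, and Isl1, Pax6 and Nkx2-2 stay inside the 2-fold lines in every group shown.

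In Gcg-dominant cells the alpha-cell factors were slightly higher in the Null library, with Irx1 at 0.18 (0.06 to 0.30), Irx2 at 0.22 (0.11 to 0.33) and Pou3f4 at 0.32 (0.19 to 0.45). Isl1 was at 0.23 (0.16 to 0.30), Pax6 at 0.03 and Nkx2-2 at -0.11. With Y-positive Control cells alone or with free RNA subtracted the ratios of Irx1, Irx2 and Pou3f4 stayed above 0, and their lowest values over the alternatives were 0.04, 0.07 and 0.06. Gcg itself was at 0.21. Hhex was past 2-fold, at 7.95 CPM in Null and 26.0 CPM in Control cells and a ratio of -1.71 (-2.36 to -1.11), where 1.90% of 9953 genes were past 2-fold either way. It came from 29 Null and 105 Control UMIs, of which the 5 highest cells held 22 and 67. Neurog3 (-3.61), Onecut1 (-2.24), Sox9 (-1.40) and Sox4 (-1.05), genes of progenitors and ducts, were the 4 of 23 measured islet transcription factors past 2-fold in the same cells, all lower in the Null library. The list of endocrine progenitor markers was closer between the libraries. It summed to 495 CPM in Null and 540 CPM in Control Gcg-dominant cells, with 0 of 10 at 0 in each. Ductal markers summed to 487 CPM in Null and 785 CPM in Control Gcg-dominant cells, with 1 of 11 at 0 in each library. Acinar markers summed to 1698 and 2650 CPM, with 1 of 16 at 0 in each. Whether these play a part in the Hhex difference was not tested.

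In Ghrl-dominant cells 0 of the 6 genes with 50 UMIs were past 2-fold, beside 1.36% of 6754 genes. Pou3f4 had the ratio farthest from 0 among them, at 0.55 (0.33 to 0.77), and the processing alternatives gave 0.10 to 0.61. Hormone-low cells had 0 of 8 past 2-fold, beside 1.55% of 10288 genes, with Irx1 at -0.48 (-0.72 to -0.24), Irx2 at -0.35 (-0.54 to -0.17), Isl1 at 0.34 (0.29 to 0.40) and Hhex at 0.68 (0.44 to 0.92). In the Neurog3-led progenitors 0 of the 6 genes with 50 UMIs were past 2-fold, beside 2.17% of 10669 genes. Mafa was at 0.53 (0.17 to 0.88), Pax6 at -0.64 (-0.90 to -0.38), Hhex at -0.79 (-1.24 to -0.36) and Nkx2-2 at 0.14 (0.08 to 0.21) there. In the Fev-led progenitors Irx2 alone of 6 was past 2-fold, at -2.13 (-3.41 to -1.04) from 8 Null and 52 Control UMIs, beside 2.28% of 10247 genes.

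Outside the endocrine lineage Hhex and Nkx2-2 differed by less than 2-fold in the classes where they were clearly present. Hhex was at 0.47 (0.43 to 0.51) in ductal cells, and at 0.42 (0.37 to 0.46) without the ductal cluster that only the Null library held. It was at -0.66 (-0.72 to -0.60) in acinar cells, at 0.23 (0.01 to 0.45) in endothelial cells and at -0.07 (-0.32 to 0.18) in macrophages. Nkx2-2 was at -0.09 (-0.15 to -0.02) in ductal cells and -0.34 (-0.40 to -0.27) in acinar cells. Past 2-fold in ductal cells were Irx1, Irx2, Isl1, Pax6 and Pou3f4, all lower in the Null library and all at or under 2.27 CPM there, beside 2.99% of 14593 genes. In acinar cells Irx1, Irx2 and Isl1 were past 2-fold, at or under 1.56 CPM in the Null library, beside 3.22% of 14839 genes. For Isl1 in ductal cells, for example, 2.27 CPM in Null and 7.01 CPM in Control cells stand beside 4.74 and 7.29 CPM of free RNA estimated for them. In the Null library the estimate was above all the Isl1 counted, so it was too high for these cells.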

How the data were processed

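Whole pancreas of embryonic day 14.5 was measured by droplet single-cell RNA sequencing, 1 pooled library per genotype. The deposited values are raw UMI counts per gene and barcode, without normalization, per the file headers. The submitters' processing notes name bcl2fastq, Cell Ranger 6.1.1, Seurat 3.2.3 and mm10. The use of strand in counting is not stated there. Of 32285 features, 99.6% matched GENCODE vM21 on GRCm38, which gave positions. No cell annotation was used.

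Barcodes with at least 1000 UMIs, 300 genes and under 15% mitochondrial UMIs were kept. Scrublet (scanpy 1.11.5) marked 535 of 9404 Null barcodes as doublets. In the Control library its own threshold marked none, so a score of 0.25 was set after that was seen, and it marked 209 of 27179 barcodes, 0.769%. A second call on barcodes with at least 5000 UMIs marked 292 of 7688 Null and 1260 of 13893 Control barcodes and served as an alternative. Cells were clustered with 2000 variable genes, 30 principal components, 15 neighbours and Leiden resolution 1, without the 8 genes. Clusters were named from marker lists, and the naming thresholds were adjusted after clusters were seen. An unnamed epithelial group of 101 Null and 661 Control cells held 15.7% of the Irx1 UMIs of the Control library and was left out of the hormone groups. The members and lists were chosen with earlier results of these data known.

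UMIs were summed per group and library and divided by the group's total without haemoglobin and mitochondrially encoded genes. CPM carries exact 95% Poisson intervals, ratios exact conditional intervals, and shares exact Clopper-Pearson intervals, computed with scipy 1.17.1. A gene counts as past 2-fold with at least 50 UMIs over both sides. A count of 0 was taken to allow 3 UMIs. The calculation was checked on simulated counts. Free RNA was estimated from acinar enzyme transcripts, with the profile taken from the barcodes with the fewest UMIs. The genes named are the 8, those of the lists, and per gene the 3 most alike. Likeness was taken over groups of at least 50 cells, among genes with at least 200 UMIs. Each ratio was recomputed with other filters, doublet calls, clusterings, hormone thresholds, totals and cells. Some genes of the lists are not reported here.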

Additional observations from a re-analysis of the deposited data

Results flagged for a closer look

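The Null over Control ratios of 3 genes pointed in opposite directions in a pair of endocrine groups, with intervals on either side of 0. The differences themselves were not tested, since each genotype is 1 library. Irx1 was at 0.18 in Gcg-dominant cells and at -1.11 in insulin-dominant cells, a difference of 1.30 on the log2 scale. Irx2 was at 0.22 in Gcg-dominant cells and at -0.63 in insulin-dominant cells, a difference of 0.85. Both genes were at 19.7 CPM or less in insulin-dominant cells. Hhex was at 0.68 in hormone-low cells and at -1.71 in Gcg-dominant cells, a difference of 2.39, and both values rested on a few cells. The 5 highest cells held 171 of 364 Null and 99 of 236 Control UMIs in hormone-low cells, and 22 of 29 Null and 67 of 105 Control UMIs in Gcg-dominant cells.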

How the results depend on the processing

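No paired analysis was possible because each genotype is 1 library, and for the same reason no library could be left out. Gcg-dominant over insulin-dominant ratios kept their sign in all 255 alternative values, of which 241 stayed within the counting interval. Those that left it were Hhex at 2.22 (Control, Y-positive cells), 1.09 (Null, mean over cells) and 1.07 (Null, thinned to 2000 UMIs), Irx1 in Control at 4.71 (hormone minimum 50 per 10000) and 4.95 (thinned), Irx2 at 5.23 in Null and 4.70 in Control (thinned), and Pou3f4 at 4.77 in Null (thinned). Isl1 was at 0.40 (Control, Y-positive cells), 0.44 (Control, thinned) and 0.25 (Null, hormone genes out of the total), Pax6 at -0.16 in Null and -0.37 in Control (thinned), and Mafa at -7.32 (Control, Y-positive cells).

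Null over Control in all endocrine-like cells kept its sign in 132 of 136 values, and 21 left the interval. With free RNA subtracted, the ratios were -0.35 for Irx1, -0.37 for Irx2, 1.18 for Mafa, 0.0047 for Isl1, -0.021 for Pax6, -0.016 for Pou3f4 and -0.17 for Nkx2-2. With Y-positive Control cells they were -0.36 for Irx2, 0.039 for Isl1, -0.10 for Pou3f4 and -0.22 for Nkx2-2. With hormone groups weighted alike, added after the data were seen, they were -0.011 for Irx1, -0.029 for Irx2, 0.83 for Mafa, 0.21 for Isl1 and 0.32 for Pou3f4. Isl1 was at 0.21 with doublets kept, 0.20 with the 8 genes among the variable genes and 0.088 thinned, Nkx2-2 at 0.044 thinned, and Hhex at 0.35 as a mean over cells. The causes were not tested. Over these settings the ratio of Pax6, Pou3f4 and Nkx2-2 turned sign. In the single groups of cells Null over Control kept its sign in 600 of 627 values. In Ghrl-dominant cells the sign turned for Irx1 (lowest -0.11), Irx2 (lowest -0.32) and Nkx2-2 (lowest -0.027). There it also turned for Hhex, with 10 Null and 32 Control UMIs, to 0.26 with a hormone minimum of 10 per 10000. For Mafa, with 3 Null and 7 Control UMIs, it turned to 0.61 with Y-positive Control cells, 0.18 with that minimum and 0.79 thinned. In progenitors of both clusters it turned for Isl1 (0.27 with the main settings, lowest -0.27), Hhex, Pou3f4, Nkx2-2 and Pax6. It also turned for Mafa and Pax6 in Gcg-dominant cells, Pax6 and Pou3f4 in insulin-dominant cells and Mafa in ductal cells. Hhex in Gcg-dominant cells ranged from -2.76 to -1.18, and Irx1 in insulin-dominant cells from -1.28 to -0.77, past 2-fold in part of the settings only. Thinning gave no value for some low genes.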
